A study of Mus musculus with 4 samples.

Results

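The authors' hepatocyte clusters Periportal 1, Periportal 2, Periportal 3, Hepatocytes 2, Hepatocytes 3 and Hepatocytes 4 are described here in liver nuclei profiled by single-nucleus RNA-Seq. Members were all nuclei carrying one of these 6 names in the deposited annotation, and they numbered 1923 of 5193 nuclei in the series and of 4410 nuclei in its 13 hepatocyte clusters. The livers were those of 3 WT mice and of 3 mice lacking Nampt in hepatocytes (HNKO), all female C57BL6/BomTac mice that were 8 to 12 weeks old at the start and had been fed a purified control diet. All 6 mice carried a floxed Nampt gene, and HNKO mice in addition carried Cre driven by the promoter of albumin, a gene of hepatocytes. Bile duct catheter surgery preceded tissue collection in the cohort. Nuclei of each mouse were tagged with a hashtag antibody, sorted in equal number and pooled, and the pool was run as 2 RNA libraries. Mice are called WT 1 to 3 and HNKO 1 to 3.

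Hepatocytes differ along the lobule. Those around the portal vein receive oxygen-rich blood and are known for gluconeogenesis, urea synthesis and amino acid breakdown, whereas those around the central vein are known for glutamine synthesis, bile acid synthesis and drug metabolism by cytochrome P450 enzymes. Many hepatocytes lie between these zones and hold intermediate amounts of both sets of transcripts. Nuclei hold mainly unspliced RNA of nuclear genes, while mitochondrially encoded RNA and mature ribosomal RNA are mostly cytoplasmic.

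The 6 clusters had median depths of 2645 to 4944 UMIs per nucleus, where a UMI is 1 counted RNA molecule, and levels are given as CPM, the UMIs of a gene over all nuclei of a cluster and mouse, scaled to a common library total. Sums were used only where a mouse gave at least 10 nuclei. The hashtag of the assigned mouse made up 65.3% to 78.6% of all hashtag counts across these clusters, and no cell barcode occurred more than once in the merged table. The summed level of 9 hepatocyte markers, Alb and Apob among them, was 12401 to 17299 CPM. Markers of other cell types were low: 5 endothelial genes summed to 19.8 to 67.6 CPM against 9607 CPM in endothelial nuclei, 5 stellate genes to 10.2 to 131 CPM against 7160 CPM in stellate nuclei, and 5 Kupffer genes to 2.43 to 32.2 CPM against 4258 CPM in Kupffer nuclei. The 5 leukocyte genes summed to 3.30 to 83.9 CPM against 3413 CPM in CD45 nuclei, and the 7 cholangiocyte genes to 241 to 431 CPM, of which Pkhd1 gave 81.2% to 97.0%, against 7936 CPM in cholangiocytes.

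Nampt, the gene for nicotinamide phosphoribosyltransferase of the NAD salvage pathway (chromosome 12, 32819545 to 32853349, plus strand, GRCm38), was examined first because it is the targeted gene. In the sum of the 6 clusters, Nampt was at 88.7, 129.6 and 99.01 CPM in WT 1, 2 and 3, at 77.3 and 182 CPM in HNKO 1 and 2, and at 171 CPM from 2 UMIs in HNKO 3. The genotypes overlapped, and the highest value with at least 10 nuclei belonged to the mouse labelled HNKO 2. The log2 fold change, HNKO minus WT, was 0.33 (SE 0.32, edgeR quasi-likelihood FDR 1.00). Reads that count toward any part of a gene, introns included, do not tell whether the floxed segment was removed, so this count is no check of the labels.

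Genotype was spread unevenly over the clusters. The 6 clusters together held 509 of 562 hepatocyte nuclei of WT 1 (90.6%), 315 of 713 of WT 2 (44.2%), 611 of 657 of WT 3 (93.0%), 47 of 812 of HNKO 1 (5.79%), 437 of 819 of HNKO 2 (53.4%) and 4 of 847 of HNKO 3 (0.472%). HNKO 2 therefore lay within the range of the WT mice, and HNKO 1 and HNKO 3 lay below all of them. As a share of all nuclei of a mouse, the mean was 68.6% ± 24.4 (SD, n = 3) in WT and 16.9% ± 25.3 (SD, n = 3) in HNKO mice. These shares were not tested, because the clusters were built from the same genes that set the mice apart.

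Each of 4 clusters came almost wholly from 1 mouse. WT 3 gave 99.2% of Periportal 2 and 97.7% of Hepatocytes 3, and WT 1 gave 94.8% of Periportal 3 and 96.6% of Hepatocytes 4. Periportal 1 was shared by WT 2 (37.7%) and HNKO 2 (58.4%), with 17 nuclei from WT 1. Hepatocytes 2 was the only cluster of the 6 with at least 10 nuclei from 5 mice.

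**Figure D1:**
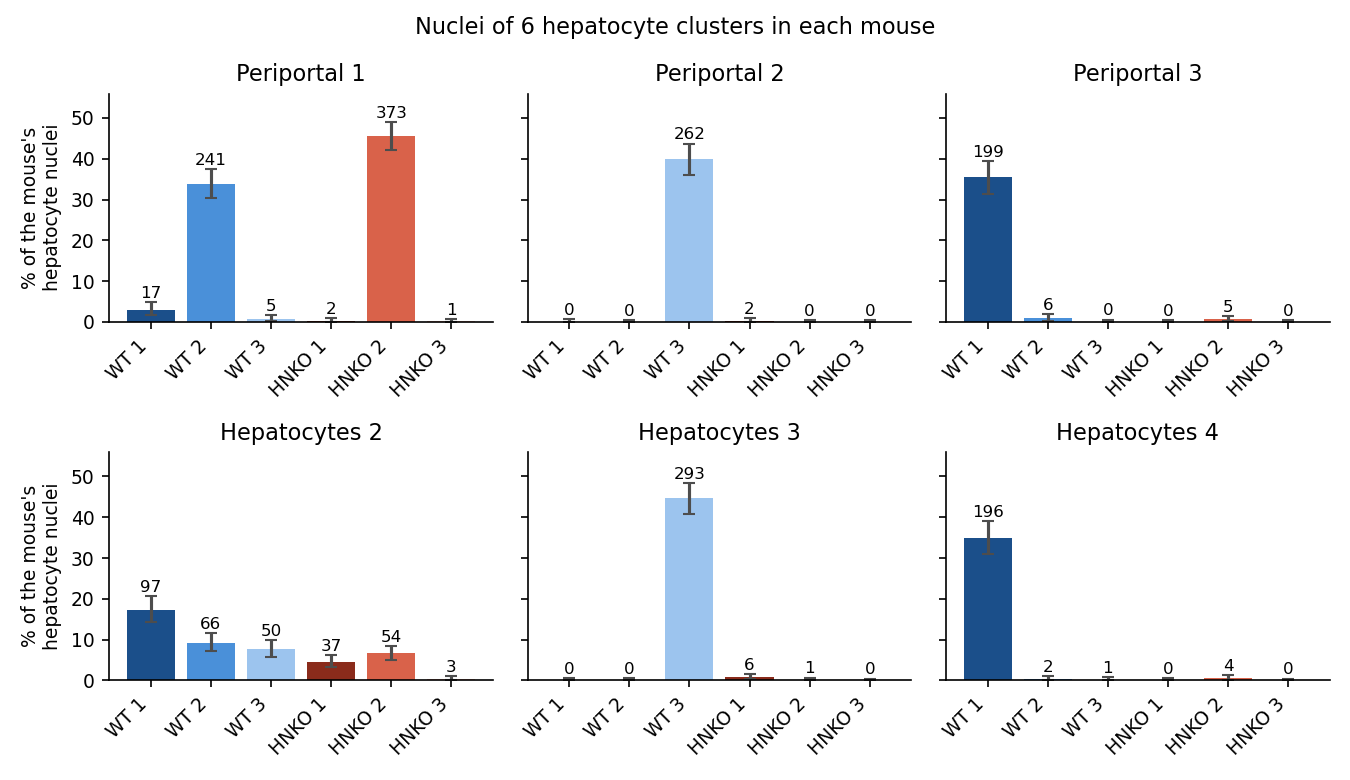
Share of each mouse's hepatocyte nuclei (%, y axis) that fell in each of the 6 clusters, by mouse (x axis, blue WT and red HNKO). Bars are shares, lines are exact 95% binomial intervals that cover counting error only, and the number of nuclei stands above each bar: Periportal 2, Periportal 3, Hepatocytes 3 and Hepatocytes 4 each rise above 5% in 1 mouse.

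Periportal 1 (639 nuclei, 376 of them HNKO and 373 of these from HNKO 2) made up 33.8% of the hepatocyte nuclei of WT 2 (exact 95% binomial interval 30.3% to 37.4%) and 45.5% of those of HNKO 2 (42.1% to 49.0%). Its leading genes against all other hepatocyte nuclei were Pnpla3, a lipid droplet acyltransferase and lipase, Arhgap10, Hal, the enzyme that starts histidine breakdown, Cryl1 and Hsd17b6. The 10 leading genes held 2 of 16 periportal markers, Hal and Sds, and no pericentral marker. When each mouse was compared with its own other hepatocytes, the first 5 were Cryl1, Sds, Arhgap10, Hal and Gldc, and 4 of the 10 were periportal markers.

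Pnpla3 (chromosome 15, 84167837 to 84187236, plus strand, GRCm38) did not mark Periportal 1 evenly. It reached 529 CPM in HNKO 2 (95% Poisson interval 502 to 557) and 697 CPM in the 17 nuclei of WT 1 (544 to 880), but 161 CPM in WT 2 (141 to 185). The value of WT 2 was close to the 141 CPM of Periportal 2 and the 150 CPM of Periportal 3. The 9 genes of fatty acid synthesis, which include Pnpla3 and Fasn, followed the same order, with 11261 CPM in WT 1, 9310 in HNKO 2 and 5297 in WT 2.

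Within Periportal 1, the mouse labelled HNKO 2 could be set beside WT 1 and WT 2 but not tested, since only 1 HNKO mouse had 10 nuclei. The 5 genes with the largest ratio above both WT mice were Hamp, which encodes the iron hormone hepcidin, Ntrk2, Smad7, an inhibitor of TGF-beta signalling, Aacs, an acetoacetate-activating enzyme, and ENSMUSG00000117465. Hamp was at 967 CPM in HNKO 2 against 159 CPM in WT 1 and 374 CPM in WT 2, and Smad7 at 115 CPM against 9.91 CPM (1 UMI) and 46.1 CPM. WT 3, whose periportal nuclei lay in Periportal 2, had 539 CPM of Hamp and 52.7 CPM of Smad7, between these WT mice and HNKO 2. The 5 genes furthest below both WT mice were Slc15a2, a peptide transporter, Ehhadh, a peroxisomal beta-oxidation enzyme, Plppr1, Ctsl and Tcp11l2. For Plppr1 and Ehhadh, other WT periportal nuclei were no higher than HNKO 2: Plppr1 was at 26.2 CPM in HNKO 2 and 25.7 CPM in Periportal 3 of WT 1, and Ehhadh at 19.8 CPM in Periportal 2 of WT 3. Slc15a2 was at 3.90 CPM in HNKO 2, at 150 CPM in WT 1 and at 49.98 CPM in WT 2, and at 43.9 and 53.9 CPM in Periportal 2 and Periportal 3. Ehhadh was at 27.8 CPM in HNKO 2 but at 30.2 CPM in WT 2, so its ratio rested on the 17 nuclei of WT 1, with 248 CPM.

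Periportal 2 (264 nuclei, 262 from WT 3 and 2 from HNKO 1) made up 39.9% of the hepatocyte nuclei of WT 3 (36.1% to 43.7%). Sds, the serine dehydratase of periportal amino acid breakdown (chromosome 5, 120476526 to 120483932, plus strand, GRCm38), led it, followed by Nrg4, a secreted EGF-family factor, Gldc of the glycine cleavage system, Lnx1 and Cyp39a1, an oxysterol hydroxylase. Sds, Gldc and Etnppl were the periportal markers among its 10 leading genes. Against the other hepatocytes of WT 3 the order was Cryl1, Sds, Hsd17b6, Cyp2f2 and Etnppl, with 6 periportal markers among 10.

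Sds was at 1721 CPM in Periportal 2 (95% Poisson interval 1662 to 1780), at 1054, 1301 and 1080 CPM in Periportal 1 of WT 2, HNKO 2 and WT 1, and at 874 CPM in Periportal 3 (825 to 925). These intervals cover counting error only and describe single mice. Nrg4 was at 979 CPM in Periportal 2, against 416, 462 and 159 CPM in Periportal 1 of WT 2, HNKO 2 and WT 1 and 314 CPM in Periportal 3. Both genes were thus highest in the periportal nuclei of WT 3, and Nrg4 was also higher in Hepatocytes 3 of that mouse (548 CPM) than in Hepatocytes 4 (107 CPM).

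Periportal 3 (210 nuclei, 199 from WT 1, 6 from WT 2 and 5 from HNKO 2) made up 35.4% of the hepatocyte nuclei of WT 1 (31.5% to 39.5%). It was led by Cryl1, a lambda-crystallin related dehydrogenase, Carmil1, a regulator of actin capping, the noncoding gene Gm31583, Hsd17b6, a hydroxysteroid dehydrogenase, and ENSMUSG00000106303. Hal and Ctsc were its periportal markers among 10, and within WT 1 the first 5 were Cryl1, Sds, Etnppl, Hsd17b6 and Ncam2. Carmil1 was at 431 CPM in Periportal 3 (397 to 468) and at 378 CPM in the 17 nuclei of the same mouse that were placed in Periportal 1 (268 to 518), against 118 CPM in WT 2 and 122 CPM in HNKO 2 of Periportal 1. Carmil1 was therefore higher in these periportal nuclei of WT 1, under either cluster name, than in Periportal 1 of WT 2 and HNKO 2.

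The 17 nuclei of WT 1 in Periportal 1 and its 199 nuclei in Periportal 3 were both strongly periportal. Cryl1 was at 277 CPM in the first and 358 CPM in the second, with overlapping intervals (184 to 401 and 327 to 392). They differed in Pnpla3, at 697 against 150 CPM, in Hal, at 2100 against 1231 CPM, and in Cyp2c38, at 149 against 619 CPM, none with overlapping counting intervals.

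Hepatocytes 3 (300 nuclei, 293 from WT 3, 6 from HNKO 1 and 1 from HNKO 2) made up 44.6% of the hepatocyte nuclei of WT 3 (40.8% to 48.5%). Its leading genes were Zfp981, a zinc finger gene, Cyp2e1, a pericentral ethanol- and drug-metabolising P450 (chromosome 7, 140763739 to 140774987, plus strand, GRCm38), ENSMUSG00000117865, Gm32511 and ENSMUSG00000110386. No periportal marker and 1 of 16 pericentral markers, Cyp2e1, stood among the 10. Against the other hepatocytes of WT 3, Cyp2c38, Cyp2e1, Cyp3a41a, Ntrk2 and Tafa2 led. Zfp981 was at 361 CPM in Hepatocytes 3 and at 329 CPM in Periportal 2 of the same mouse, but at 74.9 CPM in Hepatocytes 4 of WT 1.

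Hepatocytes 4 (203 nuclei, 196 from WT 1, 4 from HNKO 2, 2 from WT 2 and 1 from WT 3) made up 34.9% of the hepatocyte nuclei of WT 1 (30.9% to 39.0%). It was led by Slco1a1, an organic anion uptake transporter, Cyp2c54, the sulfotransferase Sult3a1, Cyp2c50 and Cyp4a14, an omega-hydroxylase of fatty acids. Slco1a1 (chromosome 6, 141907282 to 141946962, minus strand, GRCm38) was at 266 CPM in Hepatocytes 4 (240 to 293) against 28.5 CPM in Hepatocytes 3, and at 21.5 CPM in Periportal 3 of the same mouse. It was not particular to Hepatocytes 4. With each nucleus thinned to 1300 UMIs, it was found in 20.2% of Hepatocytes 4 nuclei (14.9% to 26.4%). In the authors' cluster Central 1 the share was 15.1% (10.7% to 20.6%). Slco1a1 was not among the 10 leading genes within WT 1. Cyp7a1, the rate-limiting enzyme of bile acid synthesis, was the pericentral marker among its 10 leading genes. Within WT 1 the first 5 were Cyp3a41a, Sult3a1, Esrrg, Cyp2c38 and Cyp3a44. The Cyp2c and Cyp3a genes belong to families of near-identical copies, so their single counts are uncertain.

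The choice of comparison set which genes led. Against all other hepatocytes, Periportal 2 and Periportal 3 shared none of their 10 leading genes, and Hepatocytes 3 and Hepatocytes 4 shared none. Against the hepatocytes of the same mouse, Periportal 2 and Periportal 3 shared 6 of 10, Periportal 1 shared 7 with each of them, and Hepatocytes 3 and Hepatocytes 4 shared 6. Between the rankings, Hepatocytes 3 and Hepatocytes 4 each kept 2 of their 10 leading genes, and Hepatocytes 2 kept all 10.

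Zonation was measured as the log2 ratio of summed UMIs of 16 periportal to those of 16 pericentral markers. It was 3.83, 3.35 and 3.94 in Periportal 1 of WT 1, WT 2 and HNKO 2, 5.04 in Periportal 2 of WT 3 and 3.498 in Periportal 3 of WT 1. It was 3.23 in Hepatocytes 3 of WT 3 and 2.15 in Hepatocytes 4 of WT 1. In both mice with a cluster of each kind, the periportal cluster stood higher, by more than the counting intervals (4.97 to 5.11 against 3.19 to 3.27 in WT 3, and 3.44 to 3.55 against 2.12 to 2.19 in WT 1). Across mice the order was less clear, since Hepatocytes 3 of WT 3 was close to Periportal 1 of WT 2.

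Weighting all genes equally set the periportal clusters apart from the others in every mouse measured, but did not separate Hepatocytes 1, Hepatocytes 3 and Hepatocytes 4. The difference between the mean log2(CPM + 10) of periportal and of pericentral genes was 3.85 to 4.08 in the 5 periportal profiles, 1.85 in Hepatocytes 3 and 1.45 in Hepatocytes 4, 1.29 to 2.17 in the comparison cluster Hepatocytes 1 and -1.71 to -1.18 in Central 1. Hepatocytes 3 and Hepatocytes 4 were therefore intermediate in level, above the central cluster and below the periportal clusters of their own mice. Hepatocytes 2 spread from 2.28 to 3.24 over 5 mice.

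**Figure D2:**
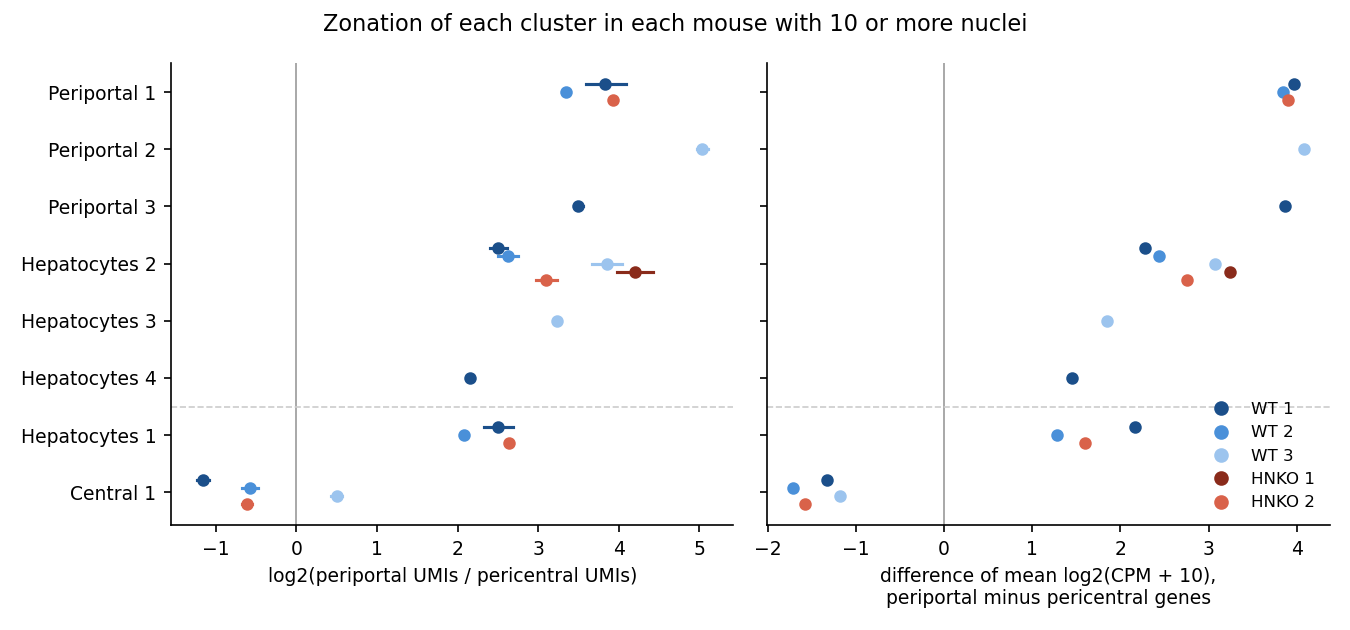
Zonation of each cluster (rows) in each mouse with at least 10 nuclei (coloured points), as the log2 ratio of summed periportal to pericentral UMIs with exact 95% binomial intervals (left x axis) and as the difference of mean log2(CPM + 10) of the marker lists (right x axis). Below the dashed line are Hepatocytes 1 and Central 1 for comparison: Central 1 lies lowest, and on the right axis the periportal clusters lie at 3.85 to 4.08, above all others.

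The step from the intermediate to the periportal cluster was read inside 4 mice, as Periportal 3 minus Hepatocytes 4 in WT 1, Periportal 2 minus Hepatocytes 3 in WT 3 and Periportal 1 minus Hepatocytes 1 in WT 2 and in HNKO 2. Since the clusters were drawn from these same genes, the differences are a description. Of 15 measured periportal markers 12 were higher in the periportal cluster of all 4 mice, and of 11 measured pericentral markers all 11 were lower in all 4. Over all 4787 genes at 20 CPM or more, 1266 (26.4%) were higher in all 4 and 718 were lower in all 4.

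Cryl1 showed the widest step upward, with log2 differences of 4.57, 3.94, 4.02 and 4.09 in WT 1, WT 2, WT 3 and HNKO 2. Sds differed by 3.47, 2.97, 3.20 and 2.66 on the same scale, and Gldc by 2.25, 2.24, 2.40 and 2.21. HNKO 2 had the smallest step of the 4 mice in Sds, in Etnppl, with 1.91, in Gls2, with 1.01, and by a small margin in Gldc. In every other measured periportal marker another mouse had the smallest step. HNKO 2 had the largest difference of the 4 mice in Asl (0.44) and in Cps1 (-0.22). It lay within the range of the WT mice in Cryl1 and in Hal (2.06, 2.16, 1.81 and 1.98). The same held for Uroc1 (0.74, 0.89, 0.79 and 0.84), Cyp2f2 (2.27, 1.99, 2.68 and 2.32), Ctsc and Hsd17b13. Any 1 of 4 mice would be lowest in some markers, so these places were not read as a genotype difference. With 1 HNKO mouse, no difference in the step was tested. Genes that stepped down were Lgr5, a receptor for R-spondins, which enhance Wnt signalling, with log2 differences of -3.94 to -2.93, Cyp2c38, with -4.66 to -2.85, and Cyp2e1, with -3.56 to -2.47. Esrrg, an estrogen-related nuclear receptor, differed by -3.66 to -2.40 and Cyp7a1 by -2.56 to -1.67.

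Not every periportal marker took part in the step. Cps1, the first enzyme of the urea cycle and the most abundant periportal marker, was slightly lower in the periportal cluster of all 4 mice (log2 differences -0.33, -0.26, -0.24 and -0.22 in WT 1, WT 2, WT 3 and HNKO 2). Cps1 was at 16802 CPM in Periportal 2 and 19911 CPM in Hepatocytes 3 of WT 3, and at 12458 CPM in Periportal 3 and 15701 CPM in Hepatocytes 4 of WT 1. Pck1, of gluconeogenesis, moved by -0.01, -0.12, 0.05 and -0.05, and the urea cycle genes Ass1, Asl and Arg1 were higher in all 4 by 0.04 to 0.44. Of 9 genes of fatty acid synthesis, 6 were higher in all 4 mice, among them Acly, the source of cytosolic acetyl-CoA, by 0.71 to 1.72 and Acaca, which makes malonyl-CoA, by 0.81 to 1.25, while Scd1 differed by -0.30 to -0.02.

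**Figure D3:**
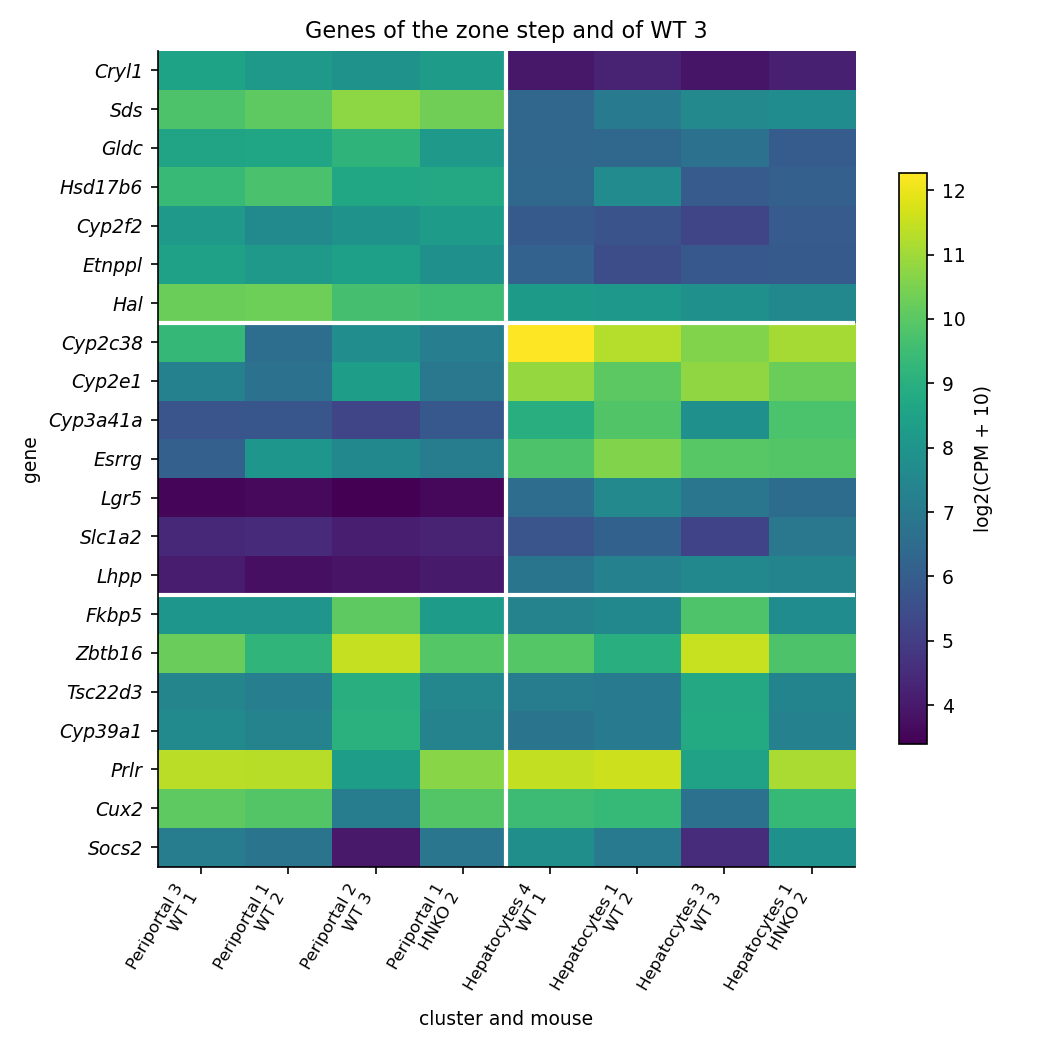
Level of 21 genes (rows) as log2(CPM + 10), by colour, in the periportal cluster (4 columns on the left) and the matching intermediate cluster (4 columns on the right) of WT 1, WT 2, WT 3 and HNKO 2. The top block of genes is brighter on the left in all 4 mice, the middle block on the right, and in the bottom block both columns of WT 3 stand apart from the other 3 mice shown, as the choice of these genes fixes.

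Shares of nuclei with a UMI gave the same picture at equal depth. After each nucleus was thinned to 1300 UMIs, with no nucleus lost, Sds was found in 72.0% of Periportal 1, 87.5% of Periportal 2 and 66.2% of Periportal 3 nuclei, in 54 of 300 Hepatocytes 3 nuclei, in 9.36% of Hepatocytes 4 nuclei and in 9.39% of endothelial nuclei, which should lack it (unthinned shares 92.6%, 98.1%, 92.9%, 29.7%, 23.2% and 15.9%). Median depths before thinning were 4532, 4944, 4326, 3898 and 4476 UMIs in these clusters and 3017 UMIs in endothelial nuclei. The thinned share in Hepatocytes 4 was at the endothelial level, and whether it was background was not tested. Slc1a2, a glutamate transporter of the last pericentral cell layers, was found in 1.43% to 5.91% of the thinned nuclei of these 5 clusters and in 5.31% of endothelial nuclei, against 97.7% in Central 1. Its shares in Hepatocytes 3 (3.33%) and Hepatocytes 4 (5.91%) were thus near the endothelial share at this depth.

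Both clusters of WT 3, Periportal 2 and Hepatocytes 3, stood apart from the matching clusters of WT 1, WT 2 and HNKO 2 in a further set of genes, ranked after the cluster values were seen by the gap between the lower of these clusters and the highest cluster of WT 1, WT 2 or HNKO 2. Of the 54464 genes in the deposited table, 13 had a gap of at least 1 on the log2 scale upward and 20 of at least 1 downward. The same reading of WT 1 gave 0 and 2 genes. The genes were chosen by this gap, so the counts are a description and were not tested. Fkbp5, a co-chaperone of the glucocorticoid receptor (chromosome 17, 28399094 to 28517527, minus strand, GRCm38), was at 1072 and 904 CPM in Periportal 2 and Hepatocytes 3, and at 155 to 303 CPM in the 6 matching profiles of these other mice. Zbtb16 was at 2867 and 2931 CPM against 486 to 1188 CPM, and Tsc22d3, a glucocorticoid-induced leucine zipper gene, at 492 and 425 CPM against 123 to 173 CPM. The ranking left out HNKO 1 and HNKO 3, which had no matching clusters. In the authors' cluster HNKO 1, which came almost wholly from mouse HNKO 1, Zbtb16 was at 3366 CPM, above both WT 3 clusters, and Fkbp5 and Tsc22d3 were at 742 and 289 CPM, between WT 3 and the other ranked mice. These high levels were therefore not particular to WT 3. In the authors' clusters HNKO 2 and HNKO 3 of mouse HNKO 3, Zbtb16 was at 451 and 315 CPM.

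Among the genes low in WT 3 were Socs2 and Cish, feedback inhibitors of cytokine and growth hormone signalling. Socs2 was at 6.00 and 13.01 CPM in Periportal 2 and Hepatocytes 3, against 102 to 220 CPM in the other profiles, and Cish at 1.57 and 1.47 CPM against 19.4 to 61.0 CPM. Prlr, the prolactin receptor, was at 319 and 356 CPM against 1622 to 3055 CPM, and Cux2, a female-biased liver repressor, at 131 and 95.7 CPM against 639 to 1068 CPM. In the cluster HNKO 1 of mouse HNKO 1, Socs2 was at 23.5, Cish at 6.74, Prlr at 726 and Cux2 at 46.6 CPM, so that low Socs2, Cish, Prlr and Cux2 were shared with a mouse outside the ranking, Cux2 being lower there than in WT 3. In the clusters HNKO 2 and HNKO 3 of mouse HNKO 3, Socs2 was at 18.3 and 25.1 CPM and Prlr at 1119 and 1487 CPM, also below the ranked mice other than WT 3. Since the genes were ranked by a gap between mice that both clusters of WT 3 share, a larger difference between mice than between zones follows from that choice. WT 1 was set apart by Sult2a1, a sulfotransferase, at 4.45 and 5.11 CPM in Periportal 3 and Hepatocytes 4 against 69.8 to 606 CPM in the matching clusters of the other ranked mice, and by Sult2a2 at 10.4 and 15.3 CPM against 108 to 461 CPM, with 18.6 and 46.98 CPM in the cluster HNKO 1 of mouse HNKO 1. They are near copies of each other whose reads may be shared.

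Hepatocytes 2 (307 nuclei, 94 of them HNKO) was spread over all mice, with 17.3% of the hepatocyte nuclei of WT 1 (exact 95% binomial interval 14.2% to 20.6%), 9.26% of WT 2, 7.61% of WT 3, 4.56% of HNKO 1 (3.23% to 6.23%), 6.59% of HNKO 2 (4.99% to 8.52%) and 0.354% of HNKO 3 (0.0731% to 1.03%). The WT shares lay above the HNKO shares in every mouse, but the interval of WT 3 (5.70% to 9.91%) overlapped those of HNKO 1 and HNKO 2, and no test was run on shares. Of its 10 leading genes 9 were mitochondrially encoded, in order ND4, COX1, ATP6, COX2, CYTB, ND2, COX3, ND4L and ND5, which encode subunits of the respiratory chain and of ATP synthase. The remaining gene, ENSMUSG00000101111 (Gm28437, chromosome 1, 24613189 to 24613971, minus strand, GRCm38), is an unprocessed pseudogene; reads shared with mitochondrial copies could not be told apart here.

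The 13 mitochondrially encoded protein genes took a median of 1.09%, 0.875% and 1.39% of UMIs per nucleus in Hepatocytes 2 of WT 1, 2 and 3, and of 1.65% and 1.10% in HNKO 1 and HNKO 2. In the other hepatocyte nuclei of the same mice the medians were 0.158%, 0.121%, 0.139%, 0.101% and 0.111%. Hepatocytes 2 was thus higher in 5 of 5 mice and the ranges did not overlap, which the definition of the cluster by these genes would give. The share was not exclusive to this cluster: 643 hepatocyte nuclei exceeded 0.5%, and 265 of them (41.2%) lay in Hepatocytes 2, of whose nuclei 86.3% exceeded it.

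Other measures moved with the mitochondrial share. Hepatocytes 2 nuclei were shallower than the other hepatocyte nuclei of their mouse, with medians of 2400 against 4323 UMIs in WT 1, 2441 against 3716 in WT 2, 2212.5 against 4311 in WT 3, 3304 against 5975 in HNKO 1 and 3265 against 5347 in HNKO 2. Fewer of their UMIs were unspliced, also with mitochondrial RNA left out: 66.3%, 67.3%, 63.1%, 71.1% and 70.1% in these mice against 76.3%, 75.6%, 76.8%, 79.0% and 76.8%. Rn18s-rs5, an 18S ribosomal RNA gene, stood at 71995, 68611 and 73281 CPM in WT and 46321 and 43414 CPM in HNKO, against 15818 to 24752 CPM in the other nuclei of these mice. All 4 measures differed in the same direction in 5 of 5 mice. Leukocyte markers summed to 22.1 to 83.9 CPM in Hepatocytes 2, against 3.30 to 18.4 CPM in the other 5 clusters. Endothelial markers summed to 32.9 to 67.6 CPM against 19.8 to 38.2 CPM, so these ranges overlapped. The ranges of stellate (27.8 to 84.98 against 10.2 to 131 CPM) and cholangiocyte markers (241 to 431 against 294 to 361 CPM) also overlapped. So did those of Kupffer markers (6.41 to 32.2 against 2.43 to 11.01 CPM). In the other 7 hepatocyte clusters, endothelial markers summed to 26.2 to 135 CPM and leukocyte markers to 7.30 to 28.02 CPM. Within each of the 4 mice of the zone step, leukocyte, Kupffer and endothelial markers were higher in Hepatocytes 2 than in the periportal and intermediate clusters. In WT 2 they were at 83.9, 20.8 and 67.6 CPM, against 17.6, 7.81 and 28.7 CPM in Periportal 1. The endothelial gap was small in HNKO 2 (32.9 against 30.1 CPM in Periportal 1), and Central 1 of WT 2 was higher (135 CPM). Stellate markers of WT 2 were at 48.6 CPM, below the 50.5 CPM of Hepatocytes 1. What part depth, unspliced share or RNA of other cells had in the cluster was not tested.

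**Figure D4:**
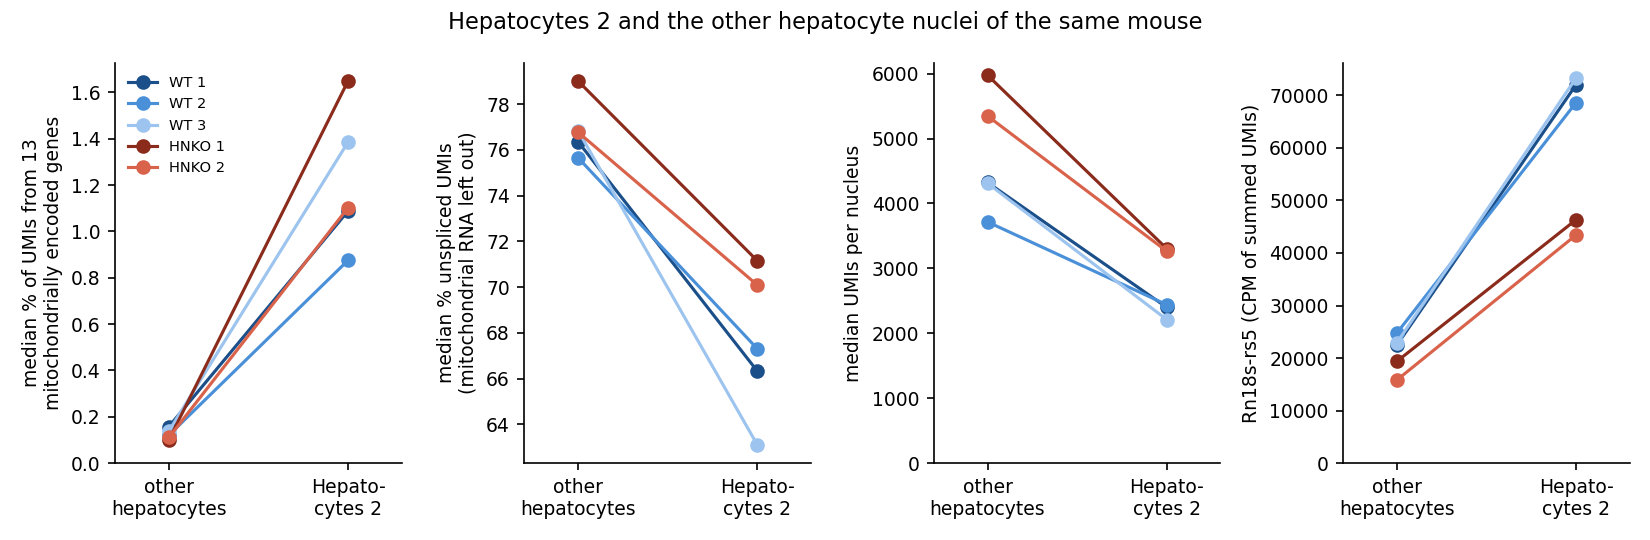
Hepatocytes 2 and the other hepatocyte nuclei of the same mouse (x axis, lines join each of 5 mice), with the median percent of UMIs from 13 mitochondrially encoded genes, the median percent of unspliced UMIs without mitochondrial RNA (axis not starting at 0), the median UMIs per nucleus and Rn18s-rs5 in CPM. In all 5 mice the first and last measure lie higher and the other two lower in Hepatocytes 2.

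Besides the differences in Rn18s-rs5 and in unspliced share, likeness to each mouse was measured over nuclear genes. Over 2996 nuclear genes, the profile of Hepatocytes 2 in each of 5 mice was closest to the other hepatocyte nuclei of its own mouse, with Pearson r across genes of 0.916 to 0.940 against at most 0.917 for any other mouse. When the mean of all mice was subtracted first, r was 0.41 to 0.50 with its own mouse and at most 0.23 with another. Genes are not independent replicates and nuclei of 1 mouse share a tag and a preparation, so these values are given without a test. The 6 female-biased genes, Cux2 and Cyp3a41a among them, summed to 1283 CPM in Hepatocytes 2 of HNKO 1, beside 1287 CPM in the authors' cluster HNKO 1 of that mouse, and to 2985 to 3741 CPM in Hepatocytes 2 of the other 4 mice. Likewise Fkbp5 was at 1103 CPM in Hepatocytes 2 of WT 3, at 233 and 198 CPM in WT 1 and WT 2, at 645 CPM in HNKO 1 and at 283 CPM in HNKO 2.

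**Figure D5:**
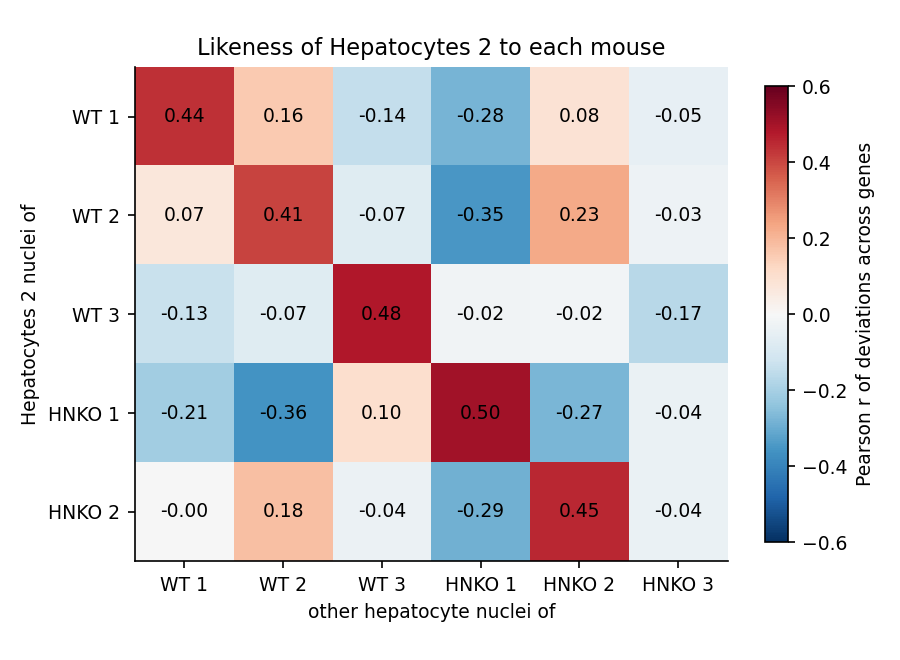
Pearson r across 2996 nuclear genes between Hepatocytes 2 of each mouse (rows) and the other hepatocyte nuclei of each mouse (columns), after subtracting the mean profile of all mice from log2(CPM + 10). In each row the value in the column of the same mouse, 0.41 to 0.50, is the highest.

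Zonation markers were mixed in Hepatocytes 2. After thinning, Sds was found in 46.6% and Cyp2e1 in 39.1% of its nuclei, between the periportal clusters (12.4% to 21.2% for Cyp2e1) and Hepatocytes 3 and Hepatocytes 4 (86.0% and 80.8%), with 16.7% in endothelial nuclei. Slc1a2 was found in 10.1%. Sds was at 404, 593 and 1116 CPM in WT 1, 2 and 3 and at 688 and 1027 CPM in HNKO 1 and 2, so the genotypes overlapped.

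The genotype effect could be tested inside 1 cluster, Hepatocytes 2, where 3 WT and 2 HNKO mice had at least 10 nuclei. Of 3302 genes tested, 1 (0.0303%) passed an FDR of 0.05 with edgeR, and 160 had an unadjusted p under 0.05. That gene was Rn18s-rs5, at lower CPM in each HNKO mouse than in any WT mouse (HNKO minus WT -0.73 on the log2 scale with an SE of 0.10, FDR 0.022 by edgeR). With no filter on low counts its FDR was 0.64 and with DESeq2 its adjusted p was 1.00. The call was also lost without WT 1 (FDR 0.29) or WT 3 (FDR 0.38). Under these 4 settings the log2 fold change was -0.77, -0.74, -0.72 and -0.69, close to the value with all mice, and without HNKO 2 the number of genes called was 23. In the other hepatocyte nuclei, Rn18s-rs5 was at 22467, 24752 and 22888 CPM in WT and at 19367, 15818 and 19803 CPM in HNKO mice, also without overlap, and HNKO nuclei were deeper there, with medians of 4814 to 5975 UMIs against 3716 to 4323. The part of depth in this difference was not tested.

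None of the marker and pathway lists had a member that passed in Hepatocytes 2. Among 14 tested periportal genes the median log2 fold change was 0.09, among 9 pericentral genes -0.41, among 7 cytochrome P450 genes -0.52, among 5 acute phase genes 0.41 and among 12 mitochondrially encoded genes 0.15, beside -0.01 over all genes tested. Nampt had a log2 fold change of 0.16 (SE 0.37, FDR 0.99), with 90.2, 114 and 115 CPM in WT and 78.6 and 161 CPM in HNKO 1 and 2.

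In the sum of the 6 clusters, 0 of 10847 genes (0%) passed with edgeR, 317 had an unadjusted p under 0.05, and DESeq2 called 1. HNKO 1 entered with 47 nuclei, 37 of them Hepatocytes 2, so cluster mix and genotype moved together in this sum. The gene that DESeq2 called was Slc15a2 (chromosome 16, 36750177 to 36784962, minus strand, GRCm38), named after its values were seen, at 62.8, 46.0 and 47.1 CPM in WT 1, 2 and 3 and at 15.5 and 4.36 CPM in HNKO 1 and 2. The HNKO 1 value came from a sum of 194036 UMIs in all, so few counts stood behind it. No HNKO value reached the lowest WT value (log2 difference -3.35 with an SE of 0.47, FDR 0.34 by edgeR). Without HNKO 2 the difference was -1.90 (FDR 0.40), and without the Hepatocytes 2 nuclei it was the 1 gene that passed (log2 fold change -3.70, edgeR FDR 0.0052). HNKO 1 then had 10 nuclei. In Hepatocytes 2 with no filter on low counts, the log2 fold change of Slc15a2 was -1.88 (edgeR FDR 0.86). Without HNKO 2 the number of genes called in the 6-cluster sum was 17. No member of the marker and pathway lists passed. The median log2 fold change was 0.02 over 16 periportal, -0.90 over 13 pericentral and 1.62 over 13 mitochondrially encoded genes, beside -0.02 over all genes tested.

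The mitochondrially encoded share of UMIs in the 6-cluster sum was 0.262%, 0.264% and 0.212% in WT 1, 2 and 3 and 1.49% and 0.225% in HNKO 1 and 2. The genotypes overlapped, with a difference of 0.613 percentage points (exact two-sided permutation p = 0.3, where 0.1 is the smallest p that 3 against 2 mice allow). HNKO 1 alone set the direction: without that mouse the difference was -0.0205, and without the Hepatocytes 2 nuclei of all mice it was -0.0189 (exact permutation p = 0.1).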

How the data were processed

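Single-nucleus RNA-Seq of 6 pooled, hashtagged mice gave 2 RNA libraries and 2 hashtag libraries. The submitters' processing notes name Cell Ranger 5.0.1 and alevin. The authors mapped reads to GRCm38 with a GENCODE gene model and filtered and clustered nuclei in Seurat. The deposited table holds estimated counts, spliced plus unspliced, of 54464 genes in 5193 nuclei, of which 10.1% of non-zero values are not whole. The authors' SCT table holds a score, variance-stabilised by SCTransform, used only as an alternative for zonation. The hashtag table deposited by the authors holds counts of antibody tags. Genotype and cluster were taken from the deposited metadata, and the hashtag named the mouse. The authors kept nuclei with a single hashtag, and no further doublet caller was run.

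Counts were summed per cluster and mouse (at least 10 nuclei), rounded, and fitted with edgeR 4.0.16 in R 4.3.3. The settings were TMM, filterByExpr, quasi-likelihood test, expression by genotype and Benjamini-Hochberg FDR 0.05, with DESeq2 1.42.0 as an alternative. The p-values of these fits take mice as the replicates and hold counting error as well as the spread between mice. The fits were tested on simulated data with a fixed dispersion and the same mean profile in all mice, apart from planted changes. Real mice differed more widely, so the simulation does not tell how many true changes the fits would miss. Leading genes were the 10 with the largest log2((CPM in cluster + 10)/(CPM in other hepatocyte nuclei + 10)), detected in at least 10% of the cluster's nuclei, over all mice and within mouse, of which the first 5 of each ranking were named. Where no test was possible, genes at 50 CPM or more whose mice did not overlap were named by size of ratio. Coordinates are from GENCODE M21 on GRCm38, found for 246 of 261 genes. Intervals are exact 95% (binomial or Poisson) and cover counting error only. Per nucleus totals of 1349 to 42718 UMIs limit single-nucleus precision. Cluster shares, zonation and leading genes were not tested. The clusters and the gene lists were chosen with earlier results of these data known. Python 3.11.15 was used. Alternatives are given in the closing section.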

Additional observations from a re-analysis of the deposited data

How the results depend on the processing

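No paired analysis was possible because the hashtag names of WT and HNKO mice share no replicate number. Analyses of either RNA pool alone were not run, since no table used here gives the pool of a nucleus. In the 6-cluster sum, edgeR called 0 genes, against 69 with no filter on low counts, 1 with DESeq2 and 1 without the Hepatocytes 2 nuclei (chosen after seeing the data), and 0 to 17 when a mouse was left out, the 17 without HNKO 2. In Hepatocytes 2, 1 gene became 9 with no filter, 0 with DESeq2 and 0 without mitochondrial and ribosomal RNA genes (chosen after seeing the data), and 0 to 23 when a mouse was left out, 0 without WT 1 or WT 3 and 23 without HNKO 2. The log2 fold change of Nampt turned to -0.58 (6 clusters) and -0.47 (Hepatocytes 2) without HNKO 2, and reached 0.69 and 0.52 without HNKO 1. That of Slc15a2 in the 6-cluster sum was -1.90 without HNKO 2, against -3.35. The mitochondrial share difference of 0.613 ranged from -0.0205 (without HNKO 1) to 1.25 on leaving out mice, and was -0.0189 without the Hepatocytes 2 nuclei. RLE normalisation changed no count of genes called. A minimum of 20 nuclei could change nothing, since every mouse in the fits already had at least 37. The cause of these changes was not tested.

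Zonation stayed positive in all 6 clusters under all 3 alternatives. The sign alone does not set them apart, since Central 1 of WT 3 was also positive on summed UMIs (0.50) and on SCT values (0.14). Without the most abundant gene of each list it was 4.54 in Periportal 1, 4.49 in Periportal 2, 4.57 in Periportal 3, 2.79 in Hepatocytes 3 and 1.17 in Hepatocytes 4, with equal gene weights 4.08 in Periportal 2, 3.87 in Periportal 3, 1.85 in Hepatocytes 3 and 1.45 in Hepatocytes 4, and on SCT values 5.11, 3.04 and 1.93 in Periportal 2, Hepatocytes 3 and Hepatocytes 4. With a pseudocount of 50 CPM, 5 to 9 of the 10 leading genes of a cluster were kept.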
